A study of Mus musculus with 9 samples.

Results

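Nuclei of epididymal adipose tissue from male C57BL/6J mice fed a high-fat diet for 12 weeks were compared with nuclei from mice of the same age on chow. Library H held nuclei of mice that were 18 weeks old and had received the high-fat diet (HFD) from 6 weeks of age, and library C held nuclei of 18-week-old mice on the control diet, which the sample labels call chow and the series text calls a low fat diet. Each library pooled the nuclei of 5 mice, the names of both begin with S075, and the labels name no transgene or drug. The members are the nuclei of C and H in which 500 to 3000 genes were detected and the total did not exceed 40000 UMIs (unique molecular identifiers, 1 per captured RNA molecule): 11647 in C and 9827 in H, together 21474 of the 76356 nuclei in the same limits over the 9 libraries of the series. With 1 library per diet there was no replicate and no test between diets. All intervals are 95% intervals for counting error only, and diet, pool of mice and library preparation cannot be told apart.

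Gene levels are given in CPM, the UMIs of a gene summed over the nuclei described and scaled to 1000000 UMIs of those nuclei, and differences are log2 ratios of H over C. Libraries from 26-week-old chow mice (CC), 39-week-old chow mice (CCC) and 31-week-old mice after 25 weeks of HFD (HH) are quoted as context. The names of CC and CCC begin with S019, so in them age and this prefix, whose meaning the labels do not give, differ from C together.

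White adipose tissue stores triglyceride in adipocytes, which are kept in a stroma of progenitor cells, capillary endothelium and resident macrophages, with a covering of mesothelial cells in the epididymal depot. When the depot expands on a high-fat diet, macrophages are known to gather around dying adipocytes and to take up lipid. Macrophages of this kind, called lipid-associated macrophages (LAMs), are known by the receptor Trem2, the glycoprotein Gpnmb, the scavenger receptor Cd36 and genes of lysosomes. Resident perivascular macrophages are known by Lyve1, Cd163, Mrc1 and Timd4.

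The 2 libraries were of similar depth. C held 13445 barcodes with 49693033 UMIs and a median of 2395 UMIs per nucleus in limits, and H held 11154 barcodes with 40823614 UMIs and a median of 2640. They shared 52 barcodes, 0.466% of the smaller library. H stood apart from C in 2 respects that touch the results below: Malat1, a nuclear RNA, took 8.87% of UMIs in H and 3.07% in C, and mitochondrial transcripts took 1.09% and 0.541%. Both kinds of transcript were left out of the sums behind CPM values, but not of the depths given here.

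Macrophages made up the largest gated class of nuclei in H. A nucleus was gated into a class when it held UMIs of at least 2 gate markers of that class and of at most 1 gate marker of every other class. Macrophage-gated nuclei were 969 of 11647 in C, a share of 8.32% (Clopper-Pearson interval 7.82 to 8.84%), and 5040 of 9827 in H, a share of 51.3% (50.3 to 52.3%). The share in HH was 34.5%, and in the older chow libraries it was 1.16% in CC and 5.44% in CCC, so both HFD libraries lay above the 3 chow libraries. Adipocyte-gated nuclei were 13.9% of C and 1.32% of H, with 14.5% in CC and 13.8% in CCC. Without the limits on nuclei they were 14.8% of C (1991 nuclei) and 2.45% of H (273 nuclei). The gate markers of this class, Adipoq, Plin1, Plin4, Acvr1c and Pnpla2, are also in the adipocyte identity list described below. Fewer adipocytes and a lower marker level per nucleus can therefore not be told apart in this share. Endothelial-gated nuclei were 7.74% of C and 2.45% of H, and mesothelial-gated nuclei were 4.38% and 1.73%. The lower endothelial and mesothelial shares held against C but not against every chow library, since endothelial-gated nuclei were 1.57% of CC and 3.38% of CCC, and mesothelial-gated nuclei 0.531% of CC and 1.37% of CCC. Progenitor-gated nuclei were 15.8% of C and 14.4% of H, a difference of -1.42 percentage points whose Wald interval for counting error runs from -2.38 to -0.460 and whose sign depended on the gate. Progenitor-gated nuclei were 5.07% of CC and 12.4% of CCC, both below H. Where no marker of another class was allowed, the difference of H minus C was 11.3 percentage points for macrophages, against 43.0 with the gate used, and 0.360 points for progenitors. The adipocyte difference was then -0.430 points, against -12.6 with the gate used. The endothelial difference was -0.377, against -5.29, and the mesothelial -0.289, against -2.65.

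The smaller classes moved in both directions. Dendritic-gated nuclei were 0.240% of C and 0.804% of H, B cells 0.163% and 0.407%, and mast cells 0.0429% and 0.295%. Epithelial-gated nuclei, which in this dissection can come from the adjoining epididymis, were 1.64% and 0.397%, and smooth muscle and pericyte nuclei 1.23% and 0.183%. T and NK nuclei were 0.773% of C and 0.590% of H. Some of these directions did not hold against every chow library. B-cell-gated nuclei were 0.710% of CCC, above H. Epithelial-gated nuclei were 0.338% of CC and T and NK nuclei 0.145% of CC, both below H. Of gated nuclei, epithelial ones were 1.41% in CC and 0.536% in H, and T and NK ones 0.604% and 0.797%. Nuclei with markers of more than 1 class were left out by the gate, and they were 30.9% of C and 19.4% of H. Of these mixed nuclei 55.4% in C held at least 2 adipocyte markers and 77.9% in H held at least 2 macrophage markers, so the shares of the gated classes leave out different nuclei in the 2 libraries. Each list of check markers, which the gate did not use, summed to its highest level in its own class in C and in H, except that in H the macrophage list was as high in the 40 B-cell-gated nuclei (3710 CPM). The 8 macrophage check markers, among them C1qa, Cd68 and Lyz2, summed to 780 CPM in macrophage-gated nuclei of C and to 3524 CPM in those of H. In the macrophage-gated nuclei of C the adipocyte check markers, with 1064 CPM, exceeded them. The progenitor check markers summed to 3221 and 8369 CPM in progenitor-gated nuclei. In mesothelial-gated nuclei the progenitor check markers, with 2429 CPM in C and 5356 CPM in H, exceeded the mesothelial ones, with 1388 and 2571 CPM, and mesothelium is known to share matrix genes and Dpp4 with progenitors.

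**Figure D1:**
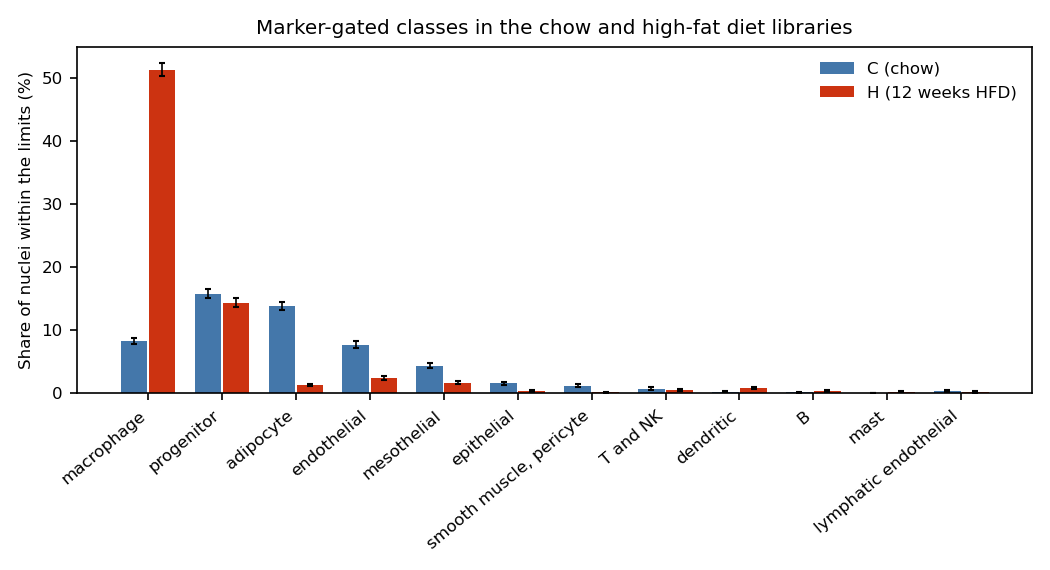
Share of nuclei in limits (percent, vertical axis from 0) gated into each of 12 cell classes in C and H, as bars with Clopper-Pearson 95% intervals for counting error only, 1 library per diet. The macrophage bar is at 8.32% in C and 51.3% in H, and the adipocyte bar at 13.9% in C and 1.32% in H.

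In UMIs summed over all nuclei, 17267 genes had at least 50 UMIs over both libraries. Of these, 4295 (24.9%) were at least 2-fold higher in H and 2290 (13.3%) at least 2-fold lower, and for 3385 and 1598 of them the whole counting interval lay past 2-fold. The median log2 ratio of all genes was 0.21. Another scaling moved all ratios together: TMM factors shifted the log2 ratios by -0.20 over all nuclei and by -0.03 to -0.15 within the 4 gated classes described below, and DESeq2 size factors shifted them by -0.25 and by -0.08 to -0.16. In these sums fewer nuclei of a type and less RNA per nucleus cannot be told apart.

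Of the 12 genes highest in H over C, 9 had their highest H level in macrophage-gated nuclei. Mmp12, the macrophage elastase (chr9:7344381-7369499 on the plus strand, mm10), was at 8.27 CPM in C and 2817 CPM in H, a log2 ratio of 8.41 (8.24 to 8.59). It was also high in HH, with 1486 CPM, and low in CC, with 12.5 CPM, and in CCC, with 89.0 CPM. Gpnmb, a LAM glycoprotein (chr6:49036546-49070929), was at 12.8 CPM in C and 1898 CPM in H (log2 ratio 7.21, 7.07 to 7.35). Trem2, the lipid-sensing receptor of LAMs (chr17:48346401-48354147), was at 3.48 and 298 CPM (6.42, 6.15 to 6.70). For these 3 genes H and HH lay above all 3 chow libraries. Rgs1, a regulator of chemokine receptor signalling, was at 1.74 CPM in C and 356 CPM in H. Serpinb9b, Olfr111, Cxcl2, Il1rn, Vsig8, Dlgap2, Gnat3 and the noncoding AU022793 completed the 12 highest, and none of these 8 exceeded 1 CPM in C. Cxcl2, a neutrophil chemokine, was at 0.244 CPM in C and 31.0 CPM in H, and Il1rn, the interleukin-1 receptor antagonist, at 0.183 and 21.2 CPM. Serpinb9b, at 34.5 CPM in H and 7.62 CPM in HH, was the one of the 12 whose HH level was lowest relative to H.

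Of the 12 lowest genes, which leave out epithelial ones, 8 were highest in adipocyte-gated nuclei of C. Cyp2e1, a cytochrome P450, was at 942 CPM in C and 8.39 CPM in H (log2 ratio -6.81, -7.01 to -6.62), with 582 CPM in CC, 130 CPM in CCC and 16.8 CPM in HH. Acacb, the acetyl-CoA carboxylase of the mitochondrial surface, was at 679 and 15.3 CPM (-5.47). Fam13a, a gene known for fat distribution, was at 2993 and 83.9 CPM (-5.16), and the glutamate transporter Slc1a3 was at 1728 and 40.9 CPM (-5.40). Cfd, the secreted protease adipsin, was at 501 and 18.4 CPM (-4.77), and Sntb1, a dystrophin-associated protein, was at 1262 and 51.9 CPM (-4.61). Each of these 6 was lower in both HFD libraries than in the 3 chow libraries. Within the few adipocyte-gated nuclei the same genes were lower in H by smaller factors: Cyp2e1 was at 1811 CPM in C and 72.7 CPM in H, Acacb at 1581 and 218 CPM, and Sntb1 at 3008 and 1162 CPM. Those H values rest on 130 nuclei.

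Some of the lowest genes in H were also low in the older chow libraries. Cish, the inhibitor of cytokine and growth hormone signalling, was at 94.0 CPM in C and 1.96 CPM in H, but only at 5.97 CPM in CC and 11.4 CPM in CCC. Zyg11a was at 83.4 and 0.690 CPM, with 11.4 CPM in CC and 4.95 CPM in CCC. Actg2, the smooth muscle gamma actin, was at 23.8 CPM in C and 0.882 CPM in H, with 0.147 CPM in CC and 0.878 CPM in CCC, so that it was not lower in H than in the older chow libraries. Kcnn2, like Actg2 highest in smooth-muscle-gated nuclei of C, was at 29.5 and 0.652 CPM. Of the epithelial genes, Akr1b7, an aldo-keto reductase of the vas deferens, was at 124 CPM in C and at 3 UMIs in H (log2 ratio -10.1, -12.4 to -8.53), Crisp1, a secreted epididymal protein, was at 60.8 and 0.268 CPM, and Anxa13 at 26.2 and 0.345 CPM.

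**Figure D2:**
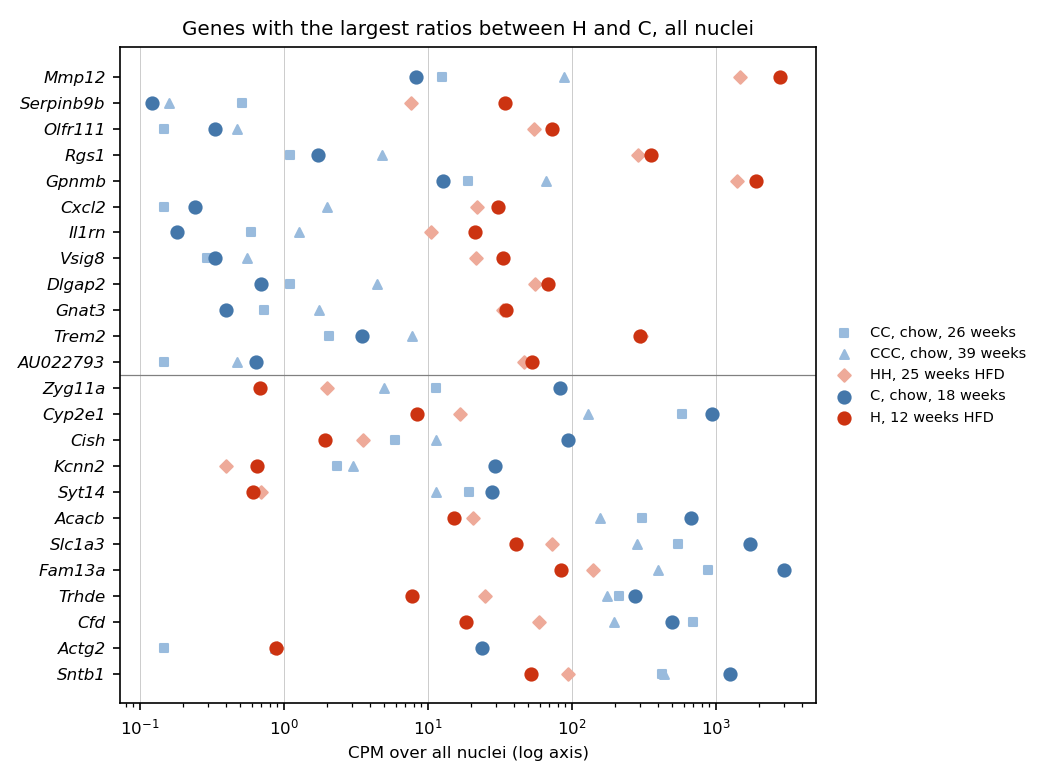
Level in CPM (log axis) of the 12 genes with the highest and the 12 with the lowest ratio of H over C in UMIs summed over all nuclei, with 1 point per library for C, H, CC, CCC and HH. Mmp12 is at 8.27 CPM in C and 2817 CPM in H, and Cyp2e1 at 942 and 8.39 CPM. In some rows points lie on top of each other.

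By gene list, the LAM, lysosomal, chemokine and MHC class II genes were mostly higher in H and the adipocyte programmes mostly lower. Of all genes 24.9% were past 2-fold higher and 13.3% past 2-fold lower. The resident macrophage list, with 4 higher and 1 lower of 12, lay near those shares. Of the 15 LAM genes 13 were past 2-fold higher and none lower (median log2 ratio 4.60, against 0.21 for all genes). Of 22 lysosomal genes 18 were higher and none lower (median 2.45), led by Psap, the saposin precursor, with 280 CPM in C and 1959 CPM in H, and the proteases Ctsb, with 147 and 1498 CPM, and Ctsd, with 56.2 and 1278 CPM. Of 17 chemokine, Csf1 and receptor genes 15 were higher and 0 lower, and Csf1 and Cxcl12 lay within 2-fold. The antigen-presentation genes of MHC class II were higher in 8 of 9, with Cd74 at 44.5 CPM in C and 273 CPM in H. Of 18 proliferation genes 17 were higher (median 2.42): Top2a, the topoisomerase of dividing cells, was at 4.52 and 45.0 CPM, and Mki67 at 1.98 and 18.0 CPM. Collagen and matrix genes were higher in 14 of 25 and lower in none (median 1.09).

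On the adipocyte side, 11 of 16 identity genes were lower and 1, Cd36, was higher (median -2.21). Of 13 genes of de novo lipogenesis, by which cells make fatty acids from glucose, 8 were lower and none higher (median -1.63). Genes of insulin and growth hormone signalling were lower in 10 of 16 and higher in 1 (median -1.11). Ghr, the growth hormone receptor, was at 13660 CPM in C and 899.7 CPM in H (-3.93), and lower in H and HH than in the 3 chow libraries, whose lowest value was 4985 CPM. Of 18 interferon response genes 2 were higher and none lower, a smaller share than the 24.9% of all genes. Of all genes 24.9% were higher and 13.3% lower. Of the remaining lists, the resident macrophage list had 4 higher and 1 lower of 12, complement 5 and 2 of 14, immediate early genes 9 and 3 of 19, cholesterol handling 8 and 1 of 14, TGF-beta and activin 2 and 1 of 17, Dpp4 progenitor genes 2 and 2 of 10, committed progenitor genes 2 and 0 of 10, endothelial fatty acid handling 2 and 4 of 14, and endothelial activation 1 and 3 of 13.

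Genes were also placed by the gated class in which their level was highest. Of the 4295 genes higher in H, 16.6% had their highest H level in macrophage-gated nuclei, against 6.94% of all genes. Of the 2290 lower genes, 24.0% were highest in adipocyte-gated nuclei of C, against 8.32% of all genes, 24.2% in epithelial-gated nuclei, against 15.1%, and 13.3% in smooth muscle and pericyte nuclei, against 8.09%. For endothelial-gated nuclei, whose share of nuclei in limits was lower in H than in C but not than in CC, the values were 8.43% and 5.53%. For mesothelial-gated nuclei they were 6.46% and 8.20%, and for lymphatic endothelial nuclei 8.52% and 12.3%. Of the 4295 higher genes, 84.1% were also past 2-fold higher in H over CC and 59.98% over CCC, and of the 2290 lower genes, 69.6% were also past 2-fold lower over CC and 72.2% over CCC. The comparisons over C, CC and CCC share the library H, so their agreement is not independent. The share of all genes past 2-fold over CC or CCC is not given, so the agreement cannot be judged against it.

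Within macrophage-gated nuclei, the LAM programme was higher in H and the resident programme mostly lower. These comparisons rest on 2498278 UMIs of 969 nuclei in C and 13531430 UMIs of 5040 nuclei in H. Of 12851 genes measured, 3422 (26.6%) were at least 2-fold higher in H and 1282 (9.98%) at least 2-fold lower, with the whole interval past 2-fold for 1765 and 875 (median log2 ratio of all genes 0.26). Macrophage RNA was also high outside macrophage-gated nuclei of H, as given further on. Each level is therefore set beside that of all other nuclei of the same library, which include the mixed nuclei. Of the 3422 higher genes, 704 (20.6%) also stood at least 2-fold above the other nuclei of H, and 311 of the 1282 lower genes (24.3%) stood that far above the other nuclei of C. The share of all measured genes that stood so far above was not determined, here or in the classes below. These percentages can therefore not be called high or low. Each gene was also judged only in the library where its level was higher.

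All 15 LAM genes were past 2-fold higher in macrophage-gated nuclei of H (median log2 ratio 3.38), and 8 of the 15 were also at least 2-fold above the other nuclei. Cd36 was at 1142 CPM in C and 4970 CPM in H, with 2101 CPM in the other nuclei of H. Mmp12 was at 46.4 and 3866 CPM (6.38, 6.12 to 6.66), with 1686 CPM in the other nuclei. Gpnmb was at 56.8 and 2592 CPM, with 1150 CPM there. Of the 15 genes, the one with the largest ratio to the other nuclei was Atp6v0d2, a subunit of the proton pump of lysosomes, at 82.1 CPM in C and 957 CPM in H, with 216 CPM in the other nuclei. Plin2, which coats lipid droplets, was at 212 and 1249 CPM, with 416 CPM in the other nuclei. Lpl, the lipase that frees fatty acids from lipoproteins, was at 331 and 1807 CPM, with 1016 CPM in the other nuclei, and Lgals3 at 127 and 1313 CPM, with 437 CPM there. Trem2 (8.81 and 361 CPM), Spp1 (2.80 and 133 CPM), Cd63, Cd9 and Acp5 were higher as well, but by less than 2-fold above the other nuclei of H.

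Several other genes went from a handful of UMIs in C to a distinct level in H. Gdf15, a stress-induced cytokine, had 1 UMI in C and was at 96.0 CPM in H, with 39.6 CPM in the other nuclei (log2 ratio 7.91, 5.42 to 13.2). Hmga2, a chromatin protein of growing cells, had 3 UMIs in C and was at 173 CPM in H (7.17, 5.62 to 9.45), with 42.8 CPM in the other nuclei. Hilpda, a lipid-droplet protein that inhibits triglyceride breakdown, also had 3 UMIs in C and was at 111 CPM in H (6.53, 4.98 to 8.81). Gdf15, Hmga2 and Hilpda were at 0 UMIs in macrophage-gated nuclei of CC, which were few, and in HH they stood at 67.0, 71.3 and 62.5 CPM. Ctsk, a collagen-degrading protease, was at 4.80 and 423 CPM, with 234 CPM in the other nuclei, and Fabp5, a fatty acid binding protein with 3 UMIs in C, was at 91.3 CPM in H (6.25, 4.70 to 8.53), with 61.1 CPM there. Ctsk and Fabp5 were thus less than 2-fold above the other nuclei. The 8 highest genes that did stand at least 2-fold above them were Gdf15, Hmga2, Olfr111, Hilpda, Mmp12, Degs2, Serpinb1c and Cxcl2. Cxcl2 had 2 UMIs in C and was at 46.3 CPM in H (5.86, 4.00 to 8.90), and the lower bounds of the log2 ratios of Olfr111, Degs2 and Serpinb1c ran from 3.64 to 5.08.

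The genes of resident macrophages were mostly lower in sums over macrophage-gated nuclei, which were 969 in C and 5040 in H. Nuclei with a UMI of F13a1 numbered 869 in C and 1078 in H. They numbered 501 and 596 for Cd163, 852 and 3148 for Mrc1, and 251 and 247 for Lyve1. A changed mix of macrophages and a lower level per nucleus cannot be told apart in these sums. Of 12 in the list 7 were past 2-fold lower and 1, Pf4, higher (median -1.22), and all 7 lower members stood at least 2-fold above the other nuclei of C. F13a1, a coagulation factor subunit, was at 5984 CPM in C and 794 CPM in H (-2.91), Mrc1, the mannose receptor, at 2599 and 1163 CPM (-1.16), and Cd163, the haemoglobin scavenger receptor, at 803 and 113 CPM (-2.82). Lyve1, a hyaluronan receptor, was at 147 and 24.7 CPM, and Timd4, a receptor for dying cells, at 137 and 8.06 CPM (-4.09). Timd4 in HH, with 8.45 CPM, was close to its level in H, and in CC and CCC it was at 232 and 62.6 CPM. Among all genes the lowest ratios above the other nuclei belonged to Thsd4 (253 and 4.29 CPM, -5.88), the interferon-induced GTPase Gbp2b (48.4 and 1.18 CPM), the adhesion receptor Cd226 (384 and 9.46 CPM), the transcription factor Aff3 (946 and 36.5 CPM), Aldh1a2, which makes retinoic acid (117 and 5.32 CPM), the flagellin receptor Tlr5 (77.3 and 4.43 CPM), Timd4 and the growth factor Nrg2 (443 and 26.5 CPM). Aff3, Tlr5 and Nrg2 were also high in both older chow libraries, with Nrg2 at 341 CPM in CC and 283 CPM in CCC. Gbp2b was at 0 CPM in CC and 11.7 CPM in CCC. Gbp4, Chsy3 and Tmem178b were lower too, but in C they were not 2-fold above the other nuclei.

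**Figure D3:**
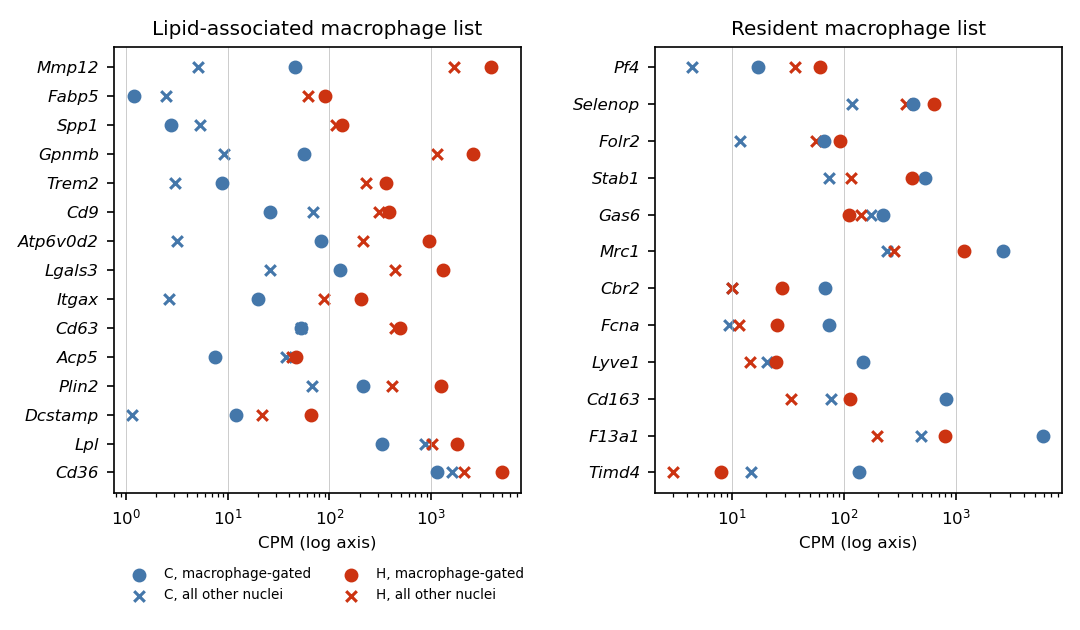
Level in CPM (log axes) of the 15 LAM genes (left) and 12 resident macrophage genes (right) in macrophage-gated nuclei (circles) and in all other nuclei (crosses) of C and H, 1 library per diet. Atp6v0d2 is at 82.1 CPM in C and 957 CPM in H, and F13a1 at 5984 and 794 CPM.

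The share of nuclei with a UMI was compared after each nucleus had been thinned to 1000 UMIs, which left out 60 of 969 macrophage-gated nuclei in C and 114 of 5040 in H. Endothelial-gated nuclei, which should lack the macrophage genes named here, served as the background. They were 700 in C and 201 in H after 202 and 40 shallower ones had been left out. Atp6v0d2 had a UMI in 2.75% of macrophage-gated nuclei in C and 41.3% in H, against 0.143% and 2.49% of endothelial-gated nuclei. Gpnmb had one in 1.32% and 68.2%, but its background was 0.143% in C and 55.7% in H, and Trem2 had one in 0.440% and 29.2%, with a background of 0.286% and 23.9%. For Mmp12 the 73.5% of macrophage-gated nuclei in H did not exceed the 78.1% of endothelial-gated nuclei, so no difference is read from that share, although its level was 3866 CPM in macrophage-gated and 1557 CPM in endothelial-gated nuclei of H. F13a1 went the other way, with 86.4% in C and 17.6% in H, against a background of 16.1% and 0.498%. Cd163 had a UMI in 40.6% and 7.17%, against 4.71% and 1.49%, and Mrc1 in 78.0% and 45.5%, against 9.71% and 5.47%. Lyve1 had one in 11.2% and 2.48%, against 1.71% and 0.995%. Mki67 had a UMI in 0.220% and 1.83% and Top2a in 0.770% and 3.57%. Both are genes of dividing cells of any class, so for them the endothelial shares are a comparison and not a background. Those shares were 0.143% and 0.498% for Mki67. For Top2a they were 0 of 700 nuclei in C, which by a limit of 3 counts allows a share of nuclei with a UMI of up to 0.429%, and 1.49% in H. Without thinning, at medians of 2407 and 2722 UMIs in macrophage-gated and 1534 and 1499 UMIs in endothelial-gated nuclei, the shares for Atp6v0d2 were 3.72% and 57.9%, for Gpnmb 2.37% and 88.3%, for Trem2 2.06% and 57.3%, for Mmp12 1.45% and 93.3%, for F13a1 89.7% and 21.4%, for Cd163 51.7% and 11.8%, for Mrc1 87.9% and 62.5%, for Lyve1 25.9% and 4.90%, for Mki67 0.722% and 4.27%, and for Top2a 1.65% and 6.71%. The unthinned shares in endothelial-gated nuclei of C and H were 0.222% and 4.15% for Atp6v0d2, 0.333% and 73.9% for Gpnmb, 0.554% and 36.9% for Trem2, 0.776% and 88.8% for Mmp12, 25.3% and 1.25% for F13a1, 6.76% and 1.25% for Cd163, 14.9% and 9.13% for Mrc1, 1.996% and 1.66% for Lyve1, 0.333% and 0.830% for Mki67, and 0.444% and 1.66% for Top2a.

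Proliferation genes were higher in 15 of 18 (median 2.26), and 13 of them stood at least 2-fold above the other nuclei of H. Top2a was at 10.8 CPM in macrophage-gated nuclei of C and 63.9 CPM in H, and Mki67, the antigen of cycling cells, at 3.60 and 26.1 CPM. Pola1, a DNA polymerase subunit, lay within 2-fold (-0.30). Of 14 genes of cholesterol handling 11 were higher and none lower (median 1.39), with the cholesterol esterifying enzyme Soat1 and the exporter Abcg1 also 2-fold above the other nuclei, while the exporter Abca1 lay within 2-fold (-0.46). Among 15 chemokine and receptor genes 9 were higher and none lower (median 1.41). Ccl3, with no UMI in C, Ccl4 and Cxcl2 were among those also above the other nuclei, and the monocyte receptor Ccr2 lay within 2-fold. Immediate early genes were higher in 9 of 17 (median 1.05): Atf3, a stress-induced repressor, was at 15.2 and 247 CPM (4.02) and Fos at 17.6 and 143 CPM (3.02).

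In the same nuclei MHC class II genes were higher in 1 of 7 and lower in none (median 0.31), whereas over all nuclei 8 of 9 were. Interferon response genes were lower in 4 of 15 and higher in 1 (median -0.63). The list of insulin and growth hormone signalling had 6 lower and 1 higher of 13 (median -0.87), and the higher one was Igf1, a growth factor that macrophages make, with 321 CPM in C and 707 CPM in H. Of the 6 lower ones, 0 stood 2-fold above the other nuclei of C. Of 12 TGF-beta and activin genes 4 were lower and 1, the receptor Tgfbr1, was higher. Complement genes were split, with 4 higher, among them the receptor C3ar1, and 5 lower of 14. Adipocyte identity genes were lower in 8 and higher in 4 of 15, and genes of de novo lipogenesis in 5 of 13. The adipocyte check markers in macrophage-gated nuclei summed to 1064 CPM in C and 213 CPM in H, and their part in these 2 lists was not tested. Where the gate allowed no marker of another class, 46 macrophage-gated nuclei of C were left and 7 adipocyte identity genes were measured. Their median was 0.36, against -1.57 over the 15 genes measured with the gate used. Collagen genes were higher in 11 of 23 and lower in 1 (median 0.83), and 0 of the higher ones stood 2-fold above the other nuclei. The small remaining lists are shown in the plot of list medians.

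Lysosomal genes were higher in 16 of 22 and lower in none in macrophage-gated nuclei (median 1.98), and 3 of the 16, Lipa, Ctss and Gusb, were also at least 2-fold above the other nuclei of H. Psap was at 549 CPM in C and 2391 CPM in H, with 1495 CPM in the other nuclei, Ctsb at 395 and 1819 CPM, with 1154 CPM there, and Ctsd at 95.3 and 1446 CPM, with 1096 CPM there. Lipa, the acid lipase that frees cholesterol from lipoproteins, was at 57.6 and 818 CPM, with 342 CPM in the other nuclei. Mcoln1, a calcium channel of the lysosome, was at 30.4 and 24.7 CPM and so lay within 2-fold. The E-box known from promoters of lysosomal genes, whose core is TCACGTG, and the letters GAGGAAGT, known from sites of the macrophage factor PU.1, were searched for on both strands in RefSeq promoter windows (GRCm38.p6, 250 bases before to 50 bases after each start). TCACGTG stood in 6 of the 18 lysosomal genes with a window (33.3%: Ctsa, Ctsd, Lamp1, Gla, Gaa and Mcoln1), in 1 of 11 LAM genes (9.09%) and in 4.29% of all 27025 genes with a window (3.77% of all 32851 windows). GAGGAAGT stood in 3 of 18 (16.7%), in 2 of 11 (18.2%: Spp1 and Mmp12) and in 3.69% of all genes (3.20% of all windows). A match is a description of the letters, and the 6 genes with TCACGTG included Ctsd, which was higher in H, and Mcoln1, which was not. The following windows are shown on the strand of the gene for this pair and for the 2 LAM genes, with the match in capitals.
Ctsd, chr7:142387898-142387948, minus strand: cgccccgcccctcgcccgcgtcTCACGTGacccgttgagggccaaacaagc
Mcoln1, chr8:3500451-3500501, plus strand: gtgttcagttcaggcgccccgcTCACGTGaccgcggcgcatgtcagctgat
Spp1, chr5:104434976-104435027, plus strand: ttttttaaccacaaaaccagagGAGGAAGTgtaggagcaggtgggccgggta
Mmp12, chr9:7344287-7344338, plus strand: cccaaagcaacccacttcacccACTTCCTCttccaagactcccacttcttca
In the Mmp12 window the capitals are the reverse complement of GAGGAAGT. In the Ctsd and Mcoln1 windows the base after the capitals is an a, so the overlapping letters match on the other strand too.

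In progenitor-gated nuclei, collagen and matrix genes were higher in H. The sums hold 4305912 UMIs of 1840 nuclei in C and 3850893 UMIs of 1413 nuclei in H. Of 11586 genes measured, 1982 (17.1%) were at least 2-fold higher and 778 (6.72%) at least 2-fold lower, with the whole interval past 2-fold for 1120 and 469 (median of all genes 0.11). Of the higher genes 431 (21.7%) stood at least 2-fold above the other nuclei of H, and of the lower genes 110 (14.1%) above those of C. The macrophage check markers in these nuclei summed to 91.0 CPM in C and 1459 CPM in H.

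Of the 25 collagen and matrix genes 19 were past 2-fold higher and none lower (median 1.64), and 18 of the 19 stood at least 2-fold above the other nuclei of H. Col3a1, the fibrillar collagen III, was at 434 CPM in C and 3290 CPM in H (2.92), and Fbn1, the microfibril protein, at 1021 and 1723 CPM, within 2-fold. Postn, a matrix protein of remodelling tissue, was at 38.1 and 760 CPM (4.32, 4.09 to 4.55), with 129 CPM in the other nuclei. In HH Postn was at 284 CPM, and in CC and CCC at 32.7 and 38.7 CPM, so both HFD libraries lay above the 3 chow libraries. Col8a1, a short-chain collagen, was at 40.4 and 720 CPM (4.16, 3.93 to 4.38). Col1a1 was at 33.4 and 400 CPM (3.58) and Col1a2 at 284 and 885 CPM (1.64), and these encode the chains of one fibril, type I collagen, with unlike ratios. Among the enzymes of matrix turnover, Mmp3 was at 3.25 and 53.8 CPM (4.05), Mmp2 at 43.0 and 189 CPM (2.14), and their inhibitor Timp1 at 3.48 and 50.4 CPM (3.85). The microfibril genes Mfap2 (1.63 and 27.3 CPM) and Mfap4 (1.16 and 21.3 CPM) and the basement membrane gene Frem1 (1.16 and 26.0 CPM) were among the 8 highest above the other nuclei, as was Rtl1, an imprinted retrotransposon-derived gene with 1 UMI in C and 20.5 CPM in H (6.46, 3.94 to 11.8). Tmprss11d, a serine protease, was at 1.86 and 35.8 CPM, and at 72.7 CPM in HH.

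Among the named lower genes of progenitor-gated nuclei, Smpd3, Rtl4 and Cadps were the most abundant in C. Lgr5, a receptor for R-spondins, had 139 UMIs in C (32.3 CPM) and 0 in H, at least 41.4-fold lower against a limit of 3 counts. Lgr5 was at 1.93 CPM in CC, 10.4 CPM in CCC and 0.833 CPM in HH. Smpd3, a neutral sphingomyelinase, was at 706 and 59.7 CPM (-3.56), and with 137 CPM in CC, 121 CPM in CCC and 73.8 CPM in HH it was highest in C of all 5 libraries. Rtl4 was at 340 and 16.6 CPM (-4.35), with 279 CPM in CC, 155 CPM in CCC and 43.3 CPM in HH. Cadps, which primes vesicle release, was at 206 and 21.8 CPM, Pld5 at 56.2 and 7.01 CPM, and the lysophosphatidic acid receptor Lpar3 at 35.1 and 4.67 CPM. Pcdh11x, a protocadherin, was at 69.0 and 8.05 CPM, but at 7.70 CPM in CC. Galntl6 (24.9 and 1.30 CPM), with 0 CPM in CC, and Grm7 (25.1 and 1.30 CPM) were as low in CCC, at 0.691 CPM each, as in H.

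Of the genes that tell progenitor states apart, those of the Dpp4 list lay mostly within 2-fold and those of the committed list did not. Of all genes in progenitor-gated nuclei 17.1% were past 2-fold higher and 6.72% lower. Of 9 Dpp4 progenitor genes 1, Ly6c1, was past 2-fold higher and none lower (median -0.16): Dpp4 was at 205 CPM in C and 183 CPM in H, Pi16 at 328 and 341 CPM, and Sema3c at 476 and 411 CPM. Of 9 committed progenitor genes 4 were higher and 1 lower (median 0.62). Bmper, which modulates bone morphogenetic proteins, was at 734 and 1540 CPM, and Fmo2, a flavin monooxygenase, at 359 and 133 CPM (-1.43). Cd36 and Lpl, also in the LAM list, were the other higher ones with Col15a1, but were higher still in CC (1121 and 947 CPM, against 850 and 672 CPM in H), and in the other nuclei of C both stood above the progenitor level. Vcam1, an adhesion molecule for leukocytes, was at 37.9 and 165 CPM (2.12). Of 13 chemokine and receptor genes 9 were higher, and Cxcl1 (3.95 and 25.2 CPM), Ccl7 (10.9 and 53.2 CPM) and Cxcl12 (24.6 and 67.8 CPM) stood at least 2-fold above the other nuclei of H. TGF-beta and activin genes were higher in 3 of 16, namely Ltbp2, Tgfb3 (19.5 CPM in H, but 46.2 CPM in CC and 23.5 CPM in CCC), and the activin inhibitor Fst, and immediate early genes higher in 5 and lower in 2 of 17. Ghr was lower (2292 and 1064 CPM, -1.11), and Socs3, a cytokine signalling inhibitor, was higher (11.2 and 30.4 CPM). Ghr was past 2-fold lower in each of the 4 gated classes, with a log2 ratio of -4.58 in macrophage-gated nuclei. In progenitor-gated nuclei 0 of the lower insulin and growth hormone genes stood 2-fold above the other nuclei of C. The LAM list was higher in 14 of 14 (median 3.78) and the lysosomal list in 15 of 22, yet 0 members of either list stood 2-fold above the other nuclei of H.

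**Figure D4:**
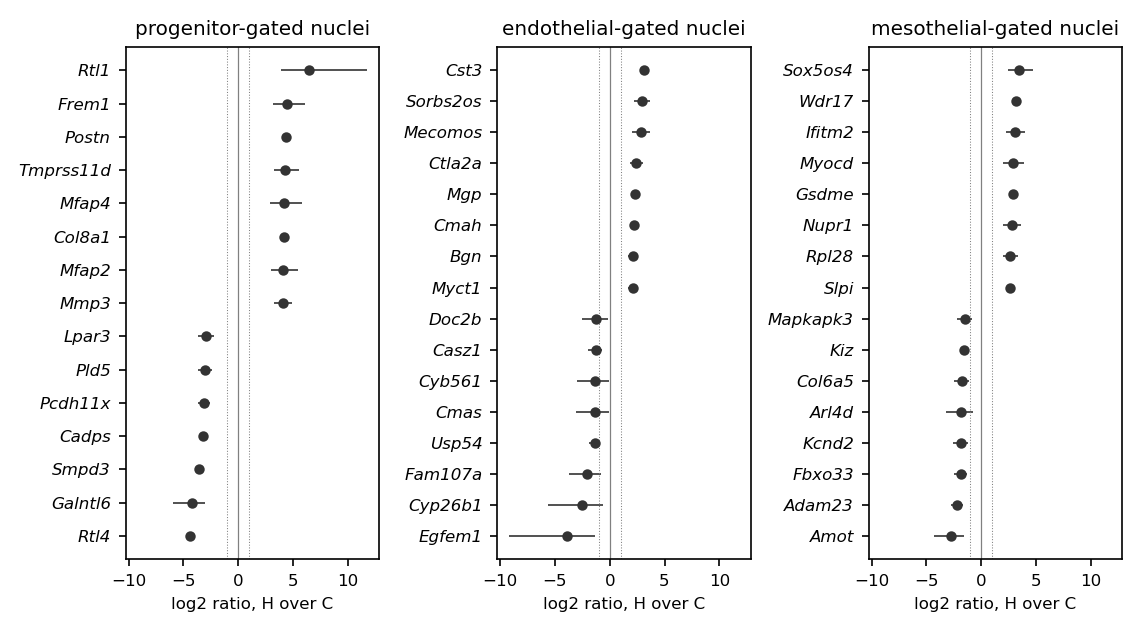
Log2 ratio of H over C (horizontal axis, with exact conditional 95% intervals and dotted lines at 2-fold) of the named genes that stood 2-fold above the other nuclei, in progenitor-, endothelial- and mesothelial-gated nuclei, 1 library per diet. Lgr5, with 0 UMIs in H, is left out. Postn is at 4.32, Mgp at 2.33 and Wdr17 at 3.15.

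In endothelial-gated nuclei 9 of 11 LAM genes were past 2-fold higher, and 0 of them stood 2-fold above the other nuclei of H. The sums were small in H, with 373870 UMIs of 241 nuclei against 1634971 UMIs of 902 nuclei in C. Endothelial levels in CC and CCC rest on 134209 UMIs of 65 nuclei and 267430 UMIs of 195 nuclei. Of 6410 genes measured, 521 (8.13%) were at least 2-fold higher and 504 (7.86%) at least 2-fold lower, with the whole interval past 2-fold for 247 and 155 (median of all genes -0.07). Gpnmb was at 1.84 CPM in C (3 UMIs) and 979 CPM in H (9.06, 7.50 to 11.3), and Mmp12 at 4.28 and 1557 CPM (8.51), each below the other nuclei of H, which had 1911 and 2835 CPM. Trem2 was at 3.06 CPM in C and 308 CPM in H, and the other nuclei of H had 298 CPM. Lyz2, lysozyme, was at 23.2 and 1099 CPM, with 965 CPM in the other nuclei, and Spp1, Ctsl, Ctsd, Creg1, Cyba and Cd63 likewise lay within 2-fold of the other nuclei of H. The 8 macrophage check markers in endothelial-gated nuclei summed to 128 CPM in C and 2522 CPM in H, and their part in these ratios was not tested. Of the 521 higher genes 109 (20.9%) stood 2-fold above the other nuclei. Where no marker of another class was allowed, 64 nuclei in C and 17 in H were left, and of the 346 genes then measured 19 were past 2-fold higher and 56 lower.

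Among those 109, Mgp, an inhibitor of calcification, was at 254 CPM in C and 1279 CPM in H (2.33, 2.14 to 2.52), with 243 CPM in the other nuclei, and at 2647 CPM in HH. Cst3, the secreted protease inhibitor cystatin C, was at 116 and 1019 CPM (3.14), with 447 CPM in the other nuclei. Myct1, an endothelial membrane protein, was at 49.5 and 211 CPM (2.09), with 4.43 CPM in the other nuclei, and Ctla2a, a cathepsin inhibitor, at 28.1 and 153 CPM (2.44), with a ratio of -0.12, on 6 UMIs, where no marker of another class was allowed. The proteoglycan Bgn was at 59.9 and 259 CPM and Cmah at 50.8 and 243 CPM. Mgp, Cst3 and Bgn were past 2-fold higher in each of the 4 gated classes. Their log2 ratios were 2.58, 2.59 and 2.26 in macrophage-gated nuclei and 3.03, 2.72 and 3.26 in progenitor-gated nuclei. In mesothelial-gated nuclei they were 2.49, 2.60 and 2.39. Mgp and Bgn are known from stromal cells as well, and the progenitor check markers in endothelial-gated nuclei summed to 546 CPM in C and 1244 CPM in H, whose part in these values was not tested. Sorbs2os (16.5 and 126 CPM) and Mecomos (12.8 and 93.6 CPM) are antisense to Sorbs2 and Mecom, and as the use of strand in the counting is not given in the sources used here, their reads and those of the partner cannot be told apart. All 8 were also higher in HH than in C, with Cmah, at 85.6 CPM in HH, the nearest to its level in C.

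Most genes of the endothelial lists lay within 2-fold, as did most of all genes in these nuclei, of which 8.13% were higher and 7.86% lower. Of 13 genes of fatty acid handling 3 were higher and none lower (median 0.76). Gpihbp1, which carries lipoprotein lipase to the capillary lumen, was at 74.6 CPM in C and 214 CPM in H (1.52), but at 292 CPM in CCC, and Btnl9 at 91.7 and 243 CPM (1.41), both above the other nuclei, while the third, Fabp5, is also in the LAM list. The most abundant members, Cd36 (2645 and 4488 CPM), Fabp4 (1175 and 2231 CPM) and Pparg (865 and 968 CPM), lay within 2-fold. Of 10 activation genes Lrg1 (47.1 and 161 CPM) and Plvap (74.0 and 153 CPM) were higher, while Vcam1 was at 269 and 267 CPM. Icam1, a leukocyte adhesion molecule, was lower (185 and 80.2 CPM, -1.21). It was at 14.9 CPM in CC and 29.9 CPM in CCC, below its level in H, but these rest on only 65 and 195 nuclei. Insulin and growth hormone genes were lower in 5 of 13 and higher in none (median -0.75), interferon response genes past 2-fold in 0 of 11, and LAM genes higher in 9 of 11, with 0 of those above the other nuclei. Of the 5 lower insulin and growth hormone genes, 0 stood 2-fold above the other nuclei of C.

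Among the lower genes of endothelial-gated nuclei, those with the largest ratios had few UMIs in H. Cfap299, a cilium gene, had 165 UMIs in C and 0 in H, at least 12.6-fold lower, Spag16 at least 7.01-fold lower and the epididymal Crisp1 at least 7.78-fold lower. These 3 genes and Hydin, Susd4, Pccb and Cfap54 were in C within 2-fold of the other nuclei. Of the 504 lower genes 23 (4.56%) stood 2-fold above the other nuclei of C. They included Egfem1, with 39.8 CPM in C and 1 UMI in H (-3.89, -9.22 to -1.36), and Cyp26b1, which breaks down retinoic acid, with 30.6 CPM in C and 2 UMIs in H (-2.52, -5.60 to -0.59). Among them were also Fam107a (55.1 and 13.4 CPM), Usp54 (262 and 102 CPM), Casz1, a transcription factor (151 and 61.5 CPM), and Doc2b (50.2 and 21.4 CPM). Usp54 was at 96.9 CPM in CC and 93.5 CPM in CCC, so C was the library that stood apart for it. Casz1 was at 52.2 CPM in CC and 93.5 CPM in CCC, and Doc2b at 14.9 CPM (2 UMIs) in CC and 26.2 CPM (7 UMIs) in CCC, so neither was lower in H than in CC.

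In mesothelial-gated nuclei Wdr17, Slpi and several complement genes were higher in H. The sums hold 890412 UMIs of 510 nuclei in C and 407988 UMIs of 170 nuclei in H. Mesothelial levels in CC and CCC rest on only 62897 UMIs of 22 nuclei and 160925 UMIs of 79 nuclei. Of 5343 genes measured, 394 (7.37%) were at least 2-fold higher and 317 (5.93%) at least 2-fold lower, with the whole interval past 2-fold for 185 and 115 (median of all genes -0.10). Wdr17 was at 719 CPM in C and 6380 CPM in H (3.15, 3.02 to 3.28), with 201 CPM in the other nuclei of H. It was at 525 CPM in CC, 3014 CPM in CCC and 7025 CPM in HH, so the older chow library CCC lay between C and H. Slpi, a secreted protease inhibitor, was at 230 and 1417 CPM (2.62), and at 2288 CPM in HH against 47.7 CPM in CC and 74.6 CPM in CCC. Gsdme, a pore-forming protein of cell death, was at 95.5 and 713 CPM (2.90), with 1027 CPM in HH. Myocd, the coactivator of smooth muscle genes, was at 14.6 and 110 CPM (2.92), with 4.83 CPM in the other nuclei. Ifitm2, Nupr1, the antisense Sox5os4 (10.1 and 113 CPM, with the same limit on strand) and ribosomal protein genes such as Rpl37 and Rpl28 were higher too. Slpi, Ifitm2, Rpl37 and Rpl28 were also past 2-fold higher in macrophage-, progenitor- and endothelial-gated nuclei. The log2 ratios there were 1.555, 1.146 and 1.832 for Slpi and 2.573, 2.565 and 2.411 for Ifitm2.

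Of 12 complement genes 7 were higher and none lower in mesothelial-gated nuclei (median 1.44). Those that stood 2-fold above the other nuclei of H were C3, the central component, at 600 CPM in C and 1686 CPM in H (1.49), Cfb, at 87.6 and 262 CPM (1.58), and the inhibitor Serping1, at 146 and 510 CPM (1.80). The 7 also included C1qa, C1qb and C1qc, macrophage complement genes that lay below the other nuclei of H. C1qa was at 50.5 and 179 CPM, with 230 CPM in the other nuclei of H. C1qb was at 14.6 and 213 CPM (3.87), with 340 CPM there, and C1qc at 20.2 and 140 CPM (2.79), with 220 CPM there. Serping1, C1qb and C1qc were also past 2-fold higher in macrophage-, progenitor- and endothelial-gated nuclei. For Serping1 the log2 ratios in those classes were 2.403, 1.124 and 2.238. Collagen and matrix genes were higher in 5 of 16 and lower in none. Dpp4 was at 611 and 1262 CPM (1.05) and Anxa3 at 272 and 650 CPM (1.26), where in progenitor-gated nuclei both lay within 2-fold. In mesothelial-gated nuclei of CCC they were at 1150 and 398 CPM, within 2-fold of H. Dpp4 is one of the progenitor check markers, whose sum in mesothelial-gated nuclei was 2429 CPM in C and 5356 CPM in H, and their part in the matrix, Dpp4, Anxa3 and Fmo2 values was not tested. Fmo2 was at 768 and 2027 CPM (1.40), the opposite direction to its ratio in progenitor-gated nuclei (-1.43) and macrophage-gated nuclei (-1.77). In mesothelial-gated nuclei of CC and CCC, Fmo2 was at 1113 and 2113 CPM, so it was not higher in H than in CCC. Vcam1 and Fn1 also differed in direction by class, higher in progenitor-gated nuclei (2.12 and 1.36) and lower in macrophage-gated nuclei (-1.64 and -1.51), where Fn1 was at 207 CPM in H and 130 CPM in CC. No difference between classes was tested.

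Lower genes of mesothelial-gated nuclei included Cfd, with 542 CPM in C and 3 UMIs in H (-6.21, -8.49 to -4.65), and Crisp1, with 69 UMIs in C and 0 in H, at least 10.5-fold lower, and both were in C at about the level of the other nuclei (499 and 60.4 CPM). Amot, an angiostatin-binding junction protein, was at 101 and 14.7 CPM (-2.78), Adam23, an adhesion protein, at 341 and 76.0 CPM (-2.17), and Kiz, a centrosomal protein, at 806 and 275 CPM (-1.55), although Kiz was at 207 CPM in CC and 218 CPM in CCC. Fbxo33, a substrate adaptor for ubiquitination, was at 253 and 68.6 CPM (-1.88). It was at 15.9 CPM in CC, on 1 UMI, and 31.1 CPM in CCC, below its level in H. Of the 394 higher genes 128 (32.5%) stood 2-fold above the other nuclei of H, and of the 317 lower genes 23 (7.26%) above those of C. Where no marker of another class was allowed, 36 nuclei in C and 2 in H were left, and of the 65 genes then measured 10 were past 2-fold higher and 17 lower. The macrophage check markers in mesothelial-gated nuclei summed to 108 CPM in C and 1706 CPM in H.

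**Figure D5:**
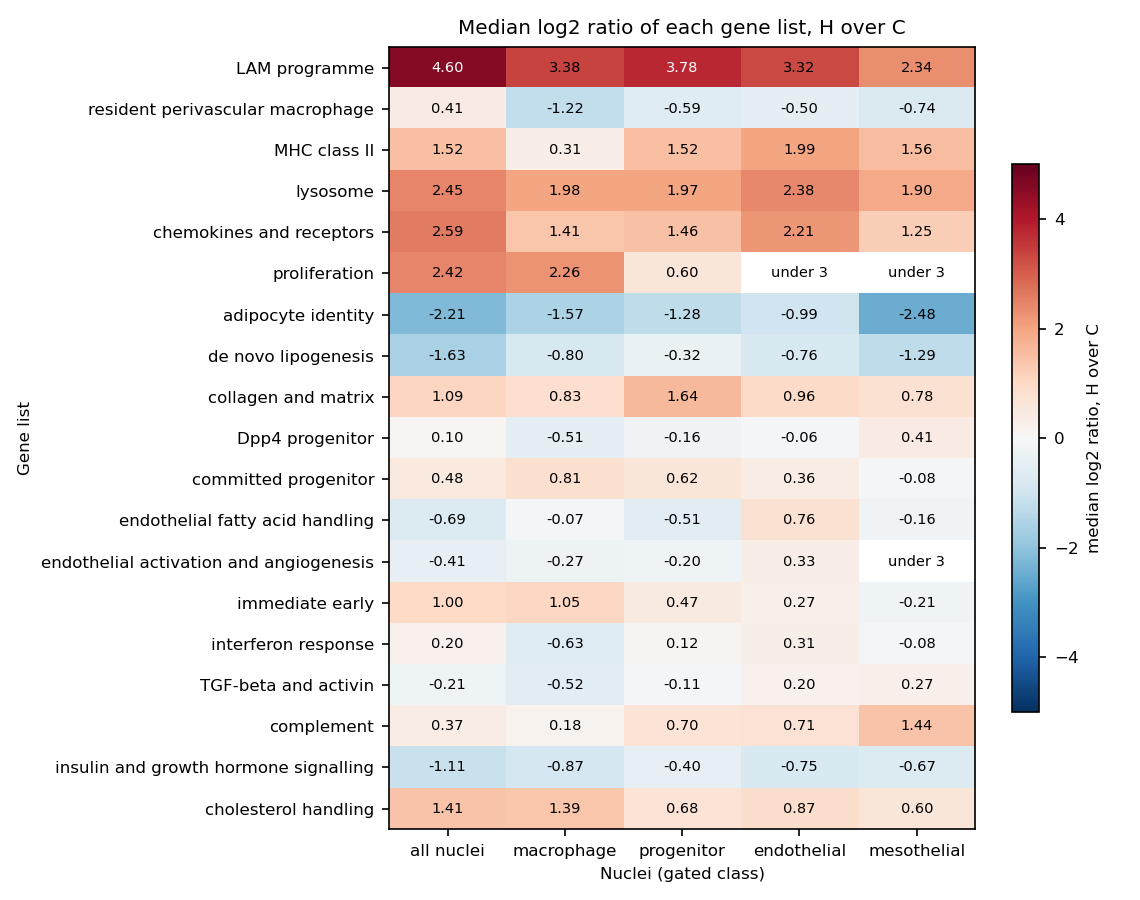
Median log2 ratio of H over C (colour and printed value) for each of 19 gene lists (rows) in all nuclei and in the 4 gated classes (columns), 1 library per diet. Cells marked under 3 had fewer than 3 members measured. The LAM list has a median of 4.60 in all nuclei, 3.38 in macrophage-gated and 3.78 in progenitor-gated nuclei.

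Some differences ran through all classes. Of the 4769 genes measured in all 4 gated classes, 183 (3.84%) were past 2-fold higher in each of the 4 and 66 (1.38%) past 2-fold lower in each. Of the 183 genes 53 encode ribosomal proteins and 21 were highest in macrophage-gated nuclei of H, and of the 66 genes 44 were highest in adipocyte-gated nuclei of C. Shares over the 4769 genes were not determined, for the ribosomal genes or for the classes, so no excess is read from these counts. Of the 17267 genes measured over all nuclei, 6.94% were highest in macrophage-gated nuclei of H and 8.32% in adipocyte-gated nuclei of C. That wider set includes genes with few UMIs in single classes and is not a background for the 4769. Ribosomal protein genes, the parts of the translating ribosome, were higher in 78 of 80 over all nuclei (median 2.0), in 78 of 80 in macrophage-gated nuclei (2.15), in 70 of 80 in progenitor-gated nuclei (1.71), in 61 of 67 in endothelial-gated nuclei (1.98) and in 60 of 70 in mesothelial-gated nuclei (1.64). Their reads can be shared with processed copies elsewhere in the genome, so single members are uncertain. Summed over all nuclei they took 2126 CPM in C and 8239 CPM in H, and 4545, 6926 and 10050 CPM in CC, CCC and HH, so C was the lowest of the 5 libraries. In CCC they took 3480 CPM in macrophage-gated nuclei against 7933 CPM in H, 4125 against 6874 CPM in progenitor-gated and 4151 against 10970 CPM in mesothelial-gated nuclei, but 11230 against 9249 CPM in endothelial-gated nuclei, where CCC lay above H. The adipocyte check markers moved opposite to the macrophage ones in every class compared. They summed to 600 CPM in C and 101 CPM in H in progenitor-gated, 746 and 187 CPM in endothelial-gated, and 805 and 150 CPM in mesothelial-gated nuclei. In the same classes the share of Malat1 and of mitochondrial RNA was not held equal, and the part of these library-wide differences in each ratio was not tested.

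The share of class differences that also held against the older chow libraries varied. In macrophage-gated nuclei 54.2% of the higher and 65.8% of the lower genes were past 2-fold the same way in H over both CC and CCC, and in progenitor-gated nuclei 51.7% and 69.3%. The shares were 40.5% and 70.8% in endothelial-gated and 57.4% and 43.5% in mesothelial-gated nuclei. These comparisons share the library H.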

How the data were processed

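Single-nucleus RNA-seq (10x Genomics 3′ chemistry, version 3.1) was performed on epididymal adipose tissue pooled from 5 male mice per library. The deposited files hold raw UMI counts per gene and barcode for 32285 genes, made by the authors with Cell Ranger 6.1.2 on mm10 with intronic reads, and the groups follow the sample labels. By its methods the study estimated free RNA with SoupX and applied no correction to its mouse samples. That estimate was not repeated here.

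UMIs were summed over nuclei in limits (500 to 3000 genes, at most 40000 UMIs), without mitochondrial genes and Malat1, and within gated classes without their gate markers. Doublets were kept, and an alternative removed 1085 (C) and 773 (H) nuclei with the highest Scrublet scores. Genes with at least 50 UMIs over C and H were measured, and past 2-fold means a CPM ratio of at least 2 or at most 0.5. Intervals (95%) are Clopper-Pearson for shares, exact Poisson for CPM and exact conditional for ratios, and a count of 0 was set to 3 for bounds. With 1 library per group no test was run. Depths were 49693033 UMIs in C and 40823614 in H. The ratio and interval code was tested on simulated data.

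Named genes were, over all nuclei, the 12 highest and 12 lowest ratios among genes with at least 100 UMIs and 20 CPM, plus 3 lowest epithelial ones, and within classes the 8 highest and 8 lowest among genes above the other nuclei of the higher library. Unnamed predictions (Gm and Rik) were passed over. Of each list, the 4 members with the most UMIs and further ones chosen after their values were seen are given. Members and lists were chosen with earlier results of these data known. Chosen after seeing these values were a second class ranking limited to genes 2-fold above the other nuclei, the ranking of 0 counts at their bound, the ribosomal and Malat1 comparison, the genes shared by 4 classes, the agreement with CC and CCC, and a gate by margin (2 own markers, 2 more than any other class).

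Alternatives were other UMI minimums, gates, limits, scalings (edgeR 4.0.16 TMM, DESeq2 1.42.0 size factors, R 4.3.3), thinning, doublet removal and the older chow libraries. Python 3.11.15, numpy 2.4.6, scipy 1.17.1, pandas 2.3.3 and scanpy 1.11.5 were used.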

Additional observations from a re-analysis of the deposited data

Results flagged for a closer look

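2 genes had opposite directions in the HFD comparison at 12 weeks and in that of HH over CC. Pcdh11x in progenitor-gated nuclei had a log2 ratio of -3.10 in H over C and of 2.02 (0.63 to 3.92) in HH over CC, where CC held 4 UMIs and HH 150. Fbxo33 in mesothelial-gated nuclei had a log2 ratio of -1.88 in H over C and of 3.07 (0.56 to 8.39) in HH over CC, where CC held 1 UMI and HH 113. With 1 library per group the difference between the comparisons was not tested.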

How the results depend on the processing

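No paired analysis was possible because each group has 1 library. Every alternative gives a value with no test, and the cause of each change was not tested except where fewer genes or nuclei enter by construction. Of 156 values for shares and counts of genes, 93 stayed near the value given in the report, 55 moved and 8 reversed. Of 968 values for named genes 951 kept their direction, as did 732 of 733 list medians. Named genes were picked for the largest ratios in these same libraries, so their direction was largely set in advance and is no measure of stability. Of all 1721 values outside those 156, 1268 stayed near the value given, 435 moved and 18 reversed.

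The number of genes measured changed with the setting, so each count is given with it. With a minimum of 1 UMI the genes higher and lower were 7540 and 5367 of 26288 measured in all nuclei. They were 8061 and 4210 of 22416 in macrophage-gated and 6170 and 3975 of 22218 in progenitor-gated nuclei. In endothelial-gated nuclei they were 4006 and 5562 of 18770, and in mesothelial-gated nuclei 4218 and 4054 of 17983. With 20 UMIs the lower genes of progenitor-gated nuclei were 1255 of 14057. The higher and lower ones were 1257 and 1075 of 9714 in endothelial-gated and 936 and 663 of 8777 in mesothelial-gated nuclei. With 200 UMIs they were 2171 and 632 of 9200 (macrophage), 720 and 316 of 6752 (progenitor), 75 and 113 of 2352 (endothelial) and 71 and 66 of 1568 (mesothelial).

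Where no marker of another class was allowed, the lower macrophage genes were 731 of 8101. The higher and lower genes were 392 and 206 of 3650 (progenitor), 19 and 56 of 346 (endothelial) and 10 and 17 of 65 (mesothelial). The adipocyte identity list in macrophage-gated nuclei then had a median of 0.36 over the 7 members still measured, and Cfap54 (1.21) and Ctla2a (-0.12) in endothelial-gated nuclei reversed. Share differences of H minus C in percentage points became 11.3 (macrophage), 0.360 (progenitor, reversed), -0.430 (adipocyte), -0.377 (endothelial) and -0.289 (mesothelial). With 3 own markers they were 36.8, 0.889 (reversed), -10.4, -4.14 and -1.15, and the lower mesothelial genes were 194 of 4167. With the margin gate they were 41.5 (macrophage), 1.49 (progenitor, reversed), -15.7 (adipocyte) and -1.56 (mesothelial), and Cfap54 reversed (0.32). With nuclei thinned to 1000 UMIs they were 34.9 (macrophage), -16.2 (adipocyte) and -6.07 (endothelial), and without limits on nuclei 40.9 (macrophage) and -4.70 (endothelial).

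For H against CC the differences in share of nuclei in limits were 50.1 (macrophage), 9.31 (progenitor), 0.884 (endothelial) and 1.20 (mesothelial), the last 3 reversed. The gate left out 71.5% of nuclei in CC and 42.2% in CCC as mixed. The lower genes were 228 of 2460 measured (endothelial) and 118 of 2296 (mesothelial). The log2 ratios of Actg2 (2.58, all nuclei), Pcdh11x (0.0637, progenitor), Usp54 (0.0694), Casz1 (0.24) and Doc2b (0.52, endothelial), and Fbxo33 (2.11), Arl4d (0.11) and Kiz (0.41, mesothelial) reversed. For H against CCC the differences in share of nuclei in limits were 45.9 (macrophage), 2.02 (progenitor, reversed), -0.927 (endothelial) and 0.361 (mesothelial, reversed). The endothelial genes were 309 higher and 264 lower of 3110, and the lower mesothelial genes 119 of 2762. Actg2 (0.00589), Grm7 (0.91), Galntl6 (0.91), Usp54 (0.12), Fbxo33 (1.14) and Kiz (0.34) reversed.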
